A study of Mus musculus with 16 samples.

Results

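Gene expression was compared between 3 cultures of mouse embryonic fibroblasts that lacked Hmgb1 (KO, Hmgb1-/-) and 3 wild-type cultures (Wt), all harvested while cycling, which are 6 of the 16 arrays of the series. They were selected by title, as the arrays of KO and Wt cycling cells, and all probes of the array were considered. Per the series description, each Wt and KO pair came from embryos of 1 mother heterozygous for the Hmgb1 deletion and mated with a heterozygous male, with 3 mothers in all, and the cells were grown to passage 3. The other 10 arrays held the same genotypes after synchronisation, with 3 KO and 3 Wt arrays in G1 and 2 KO and 2 Wt arrays in S. All the KO cells were germline Hmgb1-/-, the labels name no treatment of the cycling cultures, and embryonic fibroblast cultures are a mixture of whatever embryonic cells grow out. RNA from each culture was hybridised to an Illumina bead array, on which a probe gives 1 average intensity and 1 detection p-value per array.

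HMGB1 is an abundant chromatin protein with a pair of HMG boxes that bind the minor groove and bend DNA, and it helps transcription factors and nucleosome remodellers to reach their sites. Released by dying or activated cells, it acts as an alarm signal through the receptors RAGE and TLR4. Embryonic fibroblasts use few tissue-specific genes and secrete collagens, proteases and growth factor binding proteins.

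The 6 cycling arrays had mean intensities of 519 to 776, and 39.1% to 44.8% of the 25697 probes were detected (detection p under 0.01). Values below are log2 intensities after background correction and quantile normalization. Differences are KO minus Wt on that scale, from 3 KO and 3 Wt arrays. Their standard error (SE) is that of limma, from the spread within groups of all arrays of the series, G1 and S cells included. That fit took all arrays as independent, although there were 3 mothers in all. A call means an adjusted p under 0.05 by limma with Benjamini-Hochberg adjustment over the 12078 probes tested. The arrays numbered 1 and 2 in each genotype carried the Y-linked mRNAs Eif2s3y and Kdm5d, and the arrays numbered 3 carried Xist, so each pair matched in sex. Replicates 1 and 2 were also nearer to each other than to replicate 3. The SD of their probe differences was 0.30 within KO and 0.41 within Wt, against 0.49 for KO replicate 3 and 0.71 to 0.79 for Wt replicate 3 with the others of their genotype. Whether replicates 1 and 2 share an origin closer than the description states cannot be told from the values. The Hmgb1 probe was detected on none of the 6 arrays (4.72 to 5.29), so it could not check the genotype labels.

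In cycling cells without Hmgb1, mRNAs for the peptide gene Uts2b and for receptors such as P2ry14, Notch4 and Htr2b were higher. Those for a water channel, a matrix protease and several secreted proteins of matrix and growth factor signalling were lower. The calls of that last group were less stable. Igfbp5, Hgf, Ltbp4, Col6a2 and Coch each lost the call without at least 1 of the 6 arrays. The largest rise was in Uts2b, from background to a clear level, and the largest falls of named genes were in Aqp1 and in Mrgprf. Limma called 38 of 12078 probes (0.315%), of which 15 were higher in KO (0.124%) and 23 lower (0.190%). They covered 12 named genes that rose, 17 that fell and 4 probes without a gene symbol. The differences ran from 0.84 to 3.31 log2 units in size, with a median of 1.54. In all 38, the KO and Wt arrays did not overlap, where 22.3% of all tested probes had groups that did not overlap. The 3 pairs of the 38 moved the same way, which follows where groups do not overlap. At an unadjusted p under 0.05 there were 1253 probes.

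Same-numbered arrays were taken as the pair for a block, meant to remove what the 2 cultures of 1 mother share. With it, limma called 73 probes (0.604%), 23 higher (0.190%) and 50 lower (0.414%). Of these, 29 were among the 38 and 44 were not. Below, the value with the pair block is given where it changes the call.

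**Figure D1:**
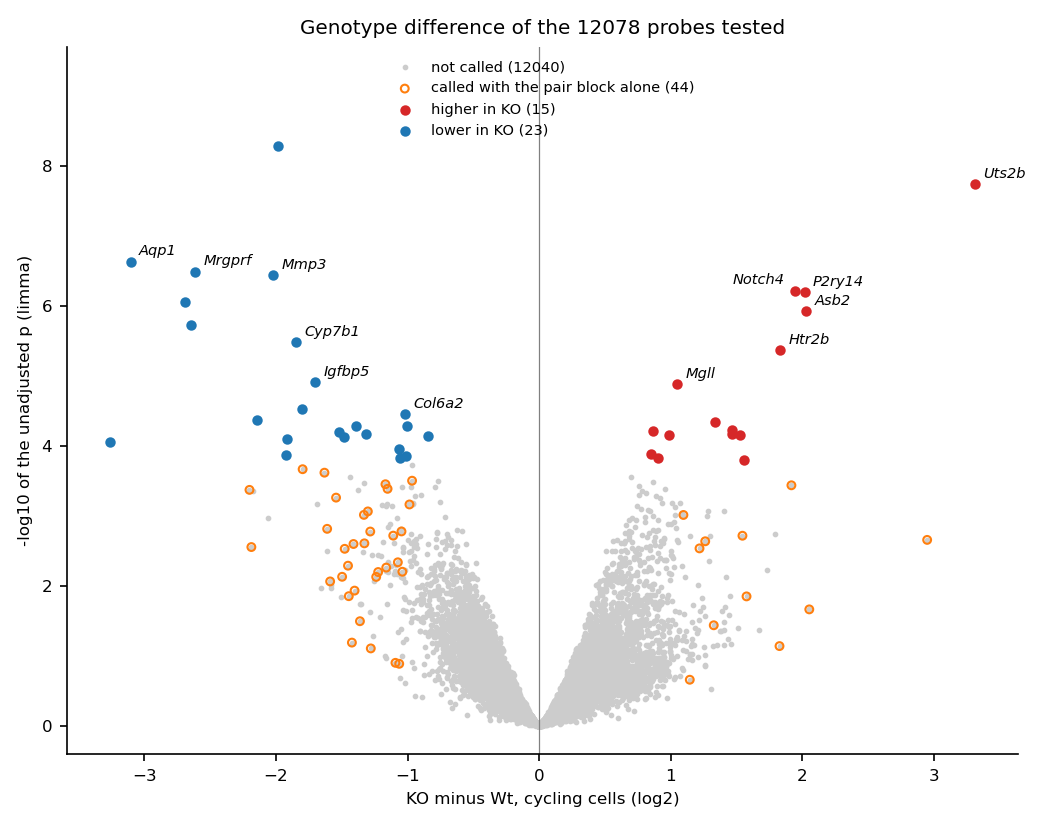
Difference between KO and Wt cycling cells (x axis, log2) against the unadjusted p of limma (y axis, -log10) for the 12078 probes tested. Red and blue points are the 15 probes called higher and the 23 called lower in KO, and orange rings are the 44 called with the pair block alone.

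Of the 26 tested genes of neuropeptide and neurotransmitter signalling, 4 rose, 1 fell and the other 21 did not pass, and the median of the list was 0.31 against 0.0036 over all 8428 genes tested. This list and those below were chosen with earlier results of these data known. The calls and median of a list are therefore a description and not a test of it. Uts2b encodes a urotensin-related peptide that constricts vessels in mammals. Its probe read 4.96, 5.05 and 4.68 on Wt replicates 1 to 3 and 8.22, 8.21 and 8.19 on KO replicates 1 to 3. The gene was detected on no Wt array and on all KO arrays, and the KO arrays lay within 0.03 log2 units of each other. At these values it was at least 6.18-fold higher in KO (adjusted p = 0.00011, limma). Over the 22 alternative fits described below, its log2 difference ran from 1.61 to 3.39, so the bound depends on the processing.

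P2ry14, a receptor for UDP-glucose that is found on immune and stromal cells, read 5.55, 6.04 and 5.99 in Wt and 7.92, 7.87 and 7.85 in KO at its brighter probe. The KO arrays were again almost equal, and each stood well above every Wt array. The difference was 2.02 ± 0.23, which is 4.06-fold (adjusted p = 0.00109, limma), and the other called P2ry14 probe, detected on 2 Wt arrays, rose by 1.34 ± 0.23. A further P2ry14 probe was detected on none of the 6 arrays.

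Htr2b, a serotonin receptor, read 5.94, 5.58 and 6.05 in Wt, where 2 arrays detected it, and 8.03, 7.91 and 7.12 in KO. KO replicate 3 was the lowest of the KO arrays and still above all Wt arrays. The difference was 1.83 ± 0.25 (3.56-fold; adjusted p = 0.00434, limma). Gabrb1, a subunit of the GABA-A receptor, read 6.31, 5.67 and 5.58 in Wt and 7.69, 7.63 and 6.82 in KO, a rise of 1.53 ± 0.27 (adjusted p = 0.0309, limma) in which KO replicate 3 was again the lowest of its group and Wt detection was on 2 arrays.

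Mrgprf, an orphan receptor of the Mas-related family, went the other way. It read 9.60, 9.49 and 9.13 in Wt and 7.03, 6.74 and 6.61 in KO. The groups lay more than 2 log2 units apart, and the fall was alike in the 3 pairs (-2.57, -2.74 and -2.52). The gene fell by 2.61 ± 0.28, which is 6.11-fold (adjusted p = 0.000865, limma).

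**Figure D2:**
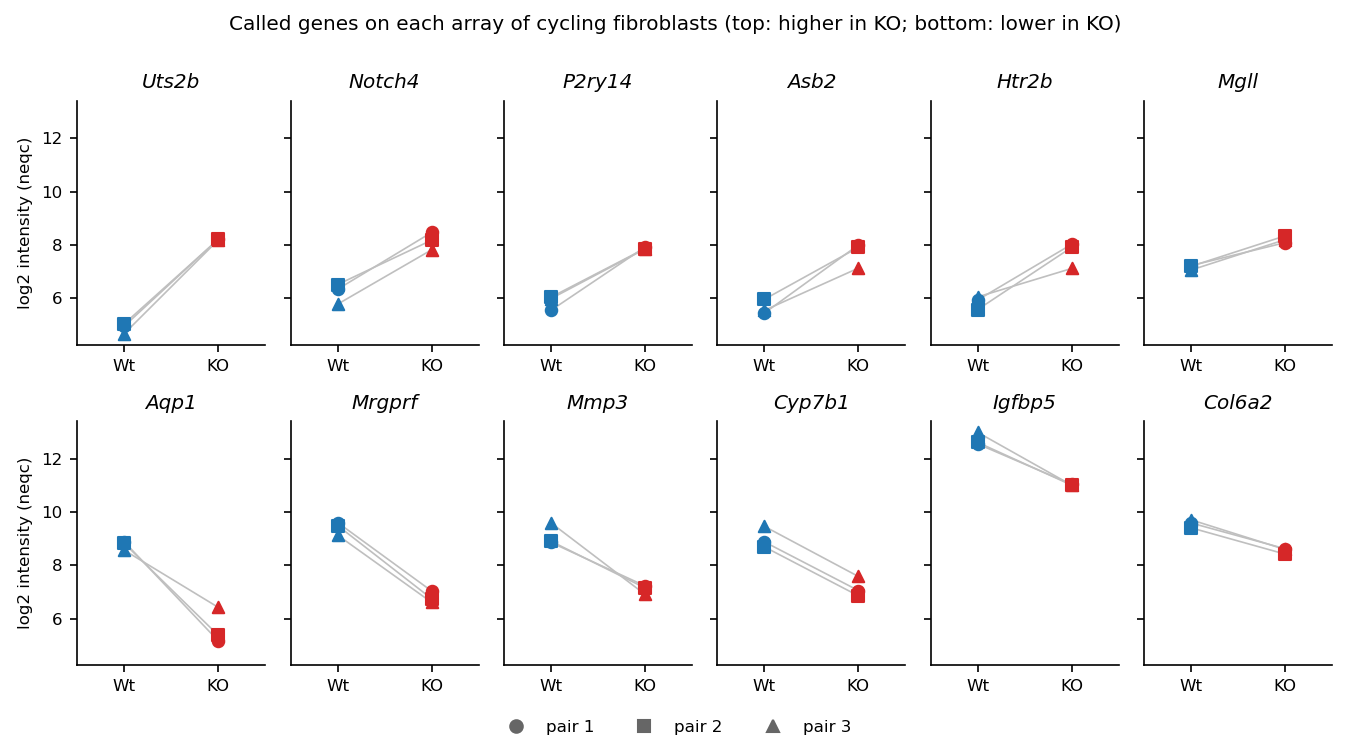
Log2 intensity (y axis) of 12 called genes on each Wt (blue) and KO (red) array of cycling cells. Symbols mark the pair, grey lines join the arrays of a pair, and in every panel all 3 KO arrays lie on 1 side of all 3 Wt arrays.

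Notch4, a Notch receptor best known from endothelium, was the called member of the 17 tested genes of the Notch pathway. It read 6.34, 6.52 and 5.78 in Wt and 8.47, 8.18 and 7.82 in KO. Pair 3 was lower than the others in both genotypes, so that its difference (2.04) lay between those of pairs 1 and 2 (2.13 and 1.67). The rise was 1.95 ± 0.22, which is 3.85-fold (adjusted p = 0.00109, limma). The other members did not pass. The Notch ligand Jag1 differed by 0.79 ± 0.34, the neuronal ligand Dner by 1.80 ± 0.47 and the non-canonical ligand Dlk1 by -2.06 ± 0.50 (adjusted p from 0.134 to 0.438, limma), and the list median was -0.18.

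Among 17 tested genes of water and ion transport, the water channel Aqp1 fell and Fxyd6, a regulator of the sodium pump, rose. The brightest Aqp1 probe read 10.78, 11.03 and 10.20 in Wt and 7.70, 7.44 and 8.80 in KO. KO replicate 3 kept more signal than the other KO arrays and Wt replicate 3 had less than the other Wt arrays, so pair 3 showed the smallest fall (-1.40, against -3.08 and -3.59). That probe fell by 2.69 ± 0.32, another, detected on 1 KO array, by 3.10 ± 0.33, and the third, detected on no KO array, was at least 4.16-fold lower (adjusted p of 0.00132, 0.000865 and 0.00227, limma). Fxyd6 read 9.43, 9.56 and 9.76 in Wt and 10.98, 10.80 and 11.35 in KO, a rise of 1.46 ± 0.26 (adjusted p = 0.0309, limma). Its replicate 3 was the highest array of each genotype.

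Of 22 tested genes of matrix metalloproteinases and their TIMP inhibitors, Mmp3 fell and no other passed. Mmp3, a protease with broad activity on matrix proteins, read 8.86, 8.90 and 9.59 in Wt and 7.22, 7.15 and 6.91 in KO at its brightest probe. Wt replicate 3 was the highest and KO replicate 3 the lowest array, which made pair 3 the one with the largest fall (-2.68, against -1.63 and -1.75). The fall was 2.02 ± 0.22, which is 4.06-fold (adjusted p = 0.000865, limma), another probe fell by 1.80 ± 0.29, and the third, detected on 1 KO array, differed by -1.44 ± 0.30 without passing. The list median was -0.01. The collagenase gene Mmp1a (0.97 ± 0.28, detected on no Wt array), Mmp14 (0.65 ± 0.18) and Mmp17 (0.88 ± 0.23) had positive values that did not pass (adjusted p from 0.175 to 0.224, limma).

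Genes of secreted matrix were split. Col6a2, an alpha chain of collagen VI, read 9.59, 9.40 and 9.71 in Wt and 8.62, 8.42 and 8.59 in KO. The 3 pairs gave nearly equal falls (-0.97, -0.99 and -1.11). It fell by 1.02 ± 0.17 (adjusted p = 0.0263, limma) and was the called member among 24 tested collagens, of which 18 lay below 0 with a median of -0.16. The other chain of the same collagen, Col6a1, was at -0.90 ± 0.20 without passing (adjusted p = 0.097, limma).

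Of 36 tested genes of elastic fibres and matrix glycoproteins, Srpx2 rose and Ltbp4 and Coch fell, with a list median of -0.09. Coch, which encodes the matrix protein cochlin, read 9.51, 9.72 and 9.48 in Wt and 7.30, 7.18 and 8.46 in KO, with KO replicate 3 well above the other KO arrays and the gene lower by 1.92 ± 0.37. Ltbp4, which binds latent TGF-beta and assists elastic fibre assembly, read 6.84, 6.71 and 6.80 in Wt and 5.51, 5.73 and 5.16 in KO, where 2 arrays detected it. It fell by 1.32 ± 0.23 (adjusted p = 0.0309, limma; 0.0559 with the pair block), and the falls in G1 and S cells were as large or larger (-1.40 and -1.71). Another Ltbp4 probe, detected on 2 Wt arrays and no KO array, did not pass at -0.98 ± 0.29. The secreted sushi-repeat protein gene Srpx2 read 10.33, 10.44 and 10.09 in Wt and 11.44, 11.38 and 11.00 in KO and rose by 0.99 ± 0.18, while its other probes did not pass (0.72 ± 0.21 and 0.54 ± 0.17).

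Genes of growth factor signalling were among those that fell. Igfbp5, which binds insulin-like growth factors in the matrix, was the brightest of the named genes that fell. It read 12.55, 12.61 and 12.98 in Wt and 11.03, 11.00 and 11.00 in KO. The KO arrays were almost equal, and the fall was 1.70 ± 0.26, which is 3.25-fold (adjusted p = 0.0112, limma). Among the 12 tested genes of the IGF system 9 lay below 0, with a median of -0.24, and Igfbp4 (-1.12 ± 0.34) and Igf2 (-1.50 ± 0.54) did not pass. Hgf, the hepatocyte growth factor that stromal cells release, read 7.03, 6.69 and 7.34 in Wt and 5.44, 5.71 and 5.33 in KO, where 2 arrays detected it. It fell by 1.52 ± 0.27 (adjusted p = 0.0309, limma), a call that the pair block ended (0.0777).

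Of 31 tested genes of lipid and sterol handling, Mgll rose and Cyp7b1 and Smpdl3b fell. Cyp7b1, an oxysterol hydroxylase, read 8.88, 8.69 and 9.46 in Wt and 7.05, 6.85 and 7.58 in KO. Replicate 3 was the highest in both genotypes, and the 3 pairs fell alike (-1.83, -1.84 and -1.88). The fall was 1.85 ± 0.25, which is 3.60-fold (adjusted p = 0.00363, limma). Mgll, the lipase that breaks down the endocannabinoid 2-AG, read 7.23, 7.20 and 7.06 in Wt and 8.09, 8.34 and 8.20 in KO and rose by 1.05 ± 0.16 (adjusted p = 0.0112, limma). A second Mgll probe rose by 0.85 ± 0.16 (adjusted p = 0.0474; 0.0777 with the pair block), and the third did not pass. Smpdl3b, a membrane phosphodiesterase related to acid sphingomyelinase, fell by 1.39 ± 0.24.

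Cxcl5, a chemokine that attracts neutrophils, was called among 23 tested chemokines. It read 7.86, 8.13 and 9.15 in Wt and 6.65, 6.61 and 6.13 in KO, and pair 3 carried the largest fall (-3.01, against -1.22 and -1.52). The fall was 1.92 ± 0.35 (adjusted p = 0.0315, limma; 0.0627 with the pair block). Of the list, 17 genes lay above 0 and 6 below, with a median of 0.42 that was 0.27 without Wt replicate 3 and 0.22 without background correction. The pair block called a different member, Cxcl14 (-1.54 ± 0.34), which the fit without it did not (adjusted p of 0.00711 and 0.101, limma). Among the 35 tested genes of interferon response and antigen presentation 1 rose. Ifi27l2b, an interferon-inducible gene, read 5.39, 5.38 and 4.67 in Wt, where no array detected it, and 7.31, 6.82 and 5.99 in KO. It was at least 2.18-fold higher (adjusted p = 0.0496, limma).

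Asb2, which directs a ubiquitin ligase to the actin cross-linkers called filamins, read 5.44, 5.96 and 5.55 in Wt and 8.0, 7.91 and 7.13 in KO. KO replicate 3 was the lowest KO array, and the rise was 2.03 ± 0.25, which is 4.08-fold (adjusted p = 0.00157, limma). It was the called member of 24 tested genes of actin and smooth muscle contraction (median -0.08), of which the myosin light chain kinase gene Mylk was at 1.04 ± 0.26 without passing. The remaining called genes were in no list. Whrn, which encodes the hair cell scaffold whirlin, rose by 1.47 ± 0.26, and the stress-inducible Gadd45g rose by 0.90 ± 0.17, a call the pair block ended (0.0846). Itih2, a hyaluronan-binding inhibitor heavy chain, fell by 1.49 ± 0.27, the cyclic AMP phosphodiesterase gene Pde4d by 1.0 ± 0.17, the secreted olfactomedin-like gene Olfml3 by 1.07 ± 0.20 and the nucleoside transporter gene Slc29a1 by 0.84 ± 0.15. The pair block ended the calls of Olfml3 (0.0632) and Slc29a1 (0.0777). Nudt11, a hydrolase of inositol pyrophosphates, and the dioxygenase-like gene Hpdl were detected on no KO array and were at least 1.42-fold and 1.44-fold lower, and Hpdl was not called with the pair block (0.086).

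The probe with the smallest p of all has no symbol. ILMN_2757617 read 13.60, 13.54 and 13.63 in Wt and 11.56, 11.59 and 11.68 in KO. Both groups were tight and bright, and it fell by 1.98 ± 0.15, which is 3.95-fold (adjusted p = 6.35e-05, limma). ILMN_2906728 fell by 3.26 ± 0.59 although its replicate 3 stood over 2 log2 units above the others in both genotypes (10.22, 10.35 and 12.46 in Wt, 7.08, 6.90 and 9.26 in KO). ILMN_2954474, detected on no KO array, was at least 3.40-fold lower, and ILMN_1254763 rose by 0.87 ± 0.15, a call the pair block ended (0.0667).

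The calls differed in how far they rested on single arrays. Without each of the 6 cycling arrays in turn, 12 of the 38 probes were called every time. They were ILMN_2757617, the 3 Aqp1 probes and the probes of Uts2b, Mrgprf, Mmp3, Notch4, P2ry14, Asb2, Cyp7b1 and Htr2b described in full above. The other 26, Igfbp5, Col6a2, Hgf and Cxcl5 among them, lost the call without at least 1 array, with highest adjusted p-values of 0.0741 to 0.261 (limma). Igfbp5 lost it without KO replicate 1, KO replicate 2 or Wt replicate 3, at most at 0.0741. The total of calls was 13, 12 and 24 without KO replicate 1, 2 or 3, and 18, 16 and 22 without Wt replicate 1, 2 or 3. The 6 cycling arrays fitted alone gave 8 calls in place of 38.

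Start regions of 4 called genes are shown because they hold the letters of an AP-1 site, which is bound by Fos and Jun dimers. RefSeq promoters (GRCm38.p6, 250 bases before to 50 after the start, 1 per gene) were found for 25 of the 29 genes, and not for Cxcl5, Cyp7b1, Ifi27l2b and Mrgprf. Of 4 motifs searched on both strands, the AP-1 site TGANTCA, which reads alike on both strands apart from its central base, was in 5 of 11 promoters of genes that rose (Htr2b, Notch4, P2ry14, Srpx2 and Uts2b) and in 2 of 14 of genes that fell (Itih2 and Mmp3). That makes 28.0% of the 25, where 5.08% of the 6869 promoters of genes tested here and 7.93% of all 27025 promoters held it. The promoters of Uts2b, P2ry14 and Notch4, which rose, and of Mmp3, which fell, are given with the AP-1 letters in capitals.
Uts2b (chr16:27370190-27370489, minus strand): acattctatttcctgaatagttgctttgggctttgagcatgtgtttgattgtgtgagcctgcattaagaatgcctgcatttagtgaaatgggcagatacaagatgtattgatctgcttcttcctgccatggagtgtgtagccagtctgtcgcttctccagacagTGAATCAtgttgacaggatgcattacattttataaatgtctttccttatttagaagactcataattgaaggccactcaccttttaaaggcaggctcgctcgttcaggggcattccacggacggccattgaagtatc
P2ry14 (chr3:59153443-59153742, minus strand): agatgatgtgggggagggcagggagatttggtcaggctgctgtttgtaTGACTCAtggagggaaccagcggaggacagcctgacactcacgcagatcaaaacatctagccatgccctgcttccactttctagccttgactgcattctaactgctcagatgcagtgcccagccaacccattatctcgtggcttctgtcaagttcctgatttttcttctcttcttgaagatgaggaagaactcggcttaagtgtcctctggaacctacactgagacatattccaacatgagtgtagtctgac
Notch4 (chr17:34564045-34564344, plus strand): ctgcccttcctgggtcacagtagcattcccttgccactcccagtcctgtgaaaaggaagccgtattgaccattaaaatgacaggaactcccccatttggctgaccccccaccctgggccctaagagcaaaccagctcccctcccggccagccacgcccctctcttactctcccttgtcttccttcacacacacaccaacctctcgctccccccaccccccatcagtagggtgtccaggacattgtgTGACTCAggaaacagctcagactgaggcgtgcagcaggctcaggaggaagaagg
Mmp3 (chr9:7445572-7445871, plus strand): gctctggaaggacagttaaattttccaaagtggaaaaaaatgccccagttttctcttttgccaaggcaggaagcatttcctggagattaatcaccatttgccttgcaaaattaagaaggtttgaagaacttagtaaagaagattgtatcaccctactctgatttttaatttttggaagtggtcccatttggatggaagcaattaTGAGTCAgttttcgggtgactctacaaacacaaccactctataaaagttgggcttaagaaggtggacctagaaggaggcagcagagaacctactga
The site began 86 bases before the start in Uts2b, 202 in P2ry14, 4 in Notch4 and 46 in Mmp3, so its place varied. The TATA box letters TATAAA were in 4 of the 25 promoters (Gadd45g, Uts2b, Coch and Mmp3), against 7.51% of those of tested genes. CCAAT was in 5 against 39%, and the E-box letters CACGTG, in 4 promoters of genes that rose and 1 of genes that fell, were in 10.5% of those of tested genes. A match describes these letters alone, and binding of a factor was not measured. The motifs were chosen with earlier results of these data known, so their shares are no test.

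The differences of the 38 probes in synchronised cells came from other arrays but from the same fit. They had mostly the same sign, as 36 did in G1 and 35 in S. The share of all tested probes with the same sign in these states is not given here. In G1, 8 of the 38 were also called (0.290% of all probes were), those of Aqp1, Mrgprf, Smpdl3b, Ltbp4, Gabrb1 and Cxcl5. In S, 13 were (0.232% of all), those of Aqp1, Mmp3, Uts2b, Cyp7b1, Igfbp5, Col6a2, Smpdl3b, Ltbp4, Srpx2 and Cxcl5. The fit used the same variance of a probe for cycling, G1 and S cells, and a small variance favours a call in each. The calls in G1 and S are therefore no independent check of those in cycling cells. Some genes called in cycling cells were near 0 in both of the other states. Gadd45g was at -0.11 in G1 and 0.06 in S, Pde4d at -0.08 and -0.33, Hgf at -0.25 and -0.33 and Ifi27l2b at 0.26 and -0.10. The test of the difference between states called 1 probe for cycling against G1 (0.00828%; 1140 at an unadjusted p under 0.05), which was ILMN_2757617. Its genotype difference was -1.98 in cycling, -0.06 in G1 and -0.97 in S cells, so the effect was 1.92 ± 0.22 log2 units more negative in cycling than in G1 cells (adjusted p = 0.00657, limma), a call the pair block ended. Cycling against S gave no call (560 at an unadjusted p under 0.05; 1 call with the pair block). The smaller values of the named genes in G1 or S were therefore not shown to differ from those in cycling cells.

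**Figure D3:**
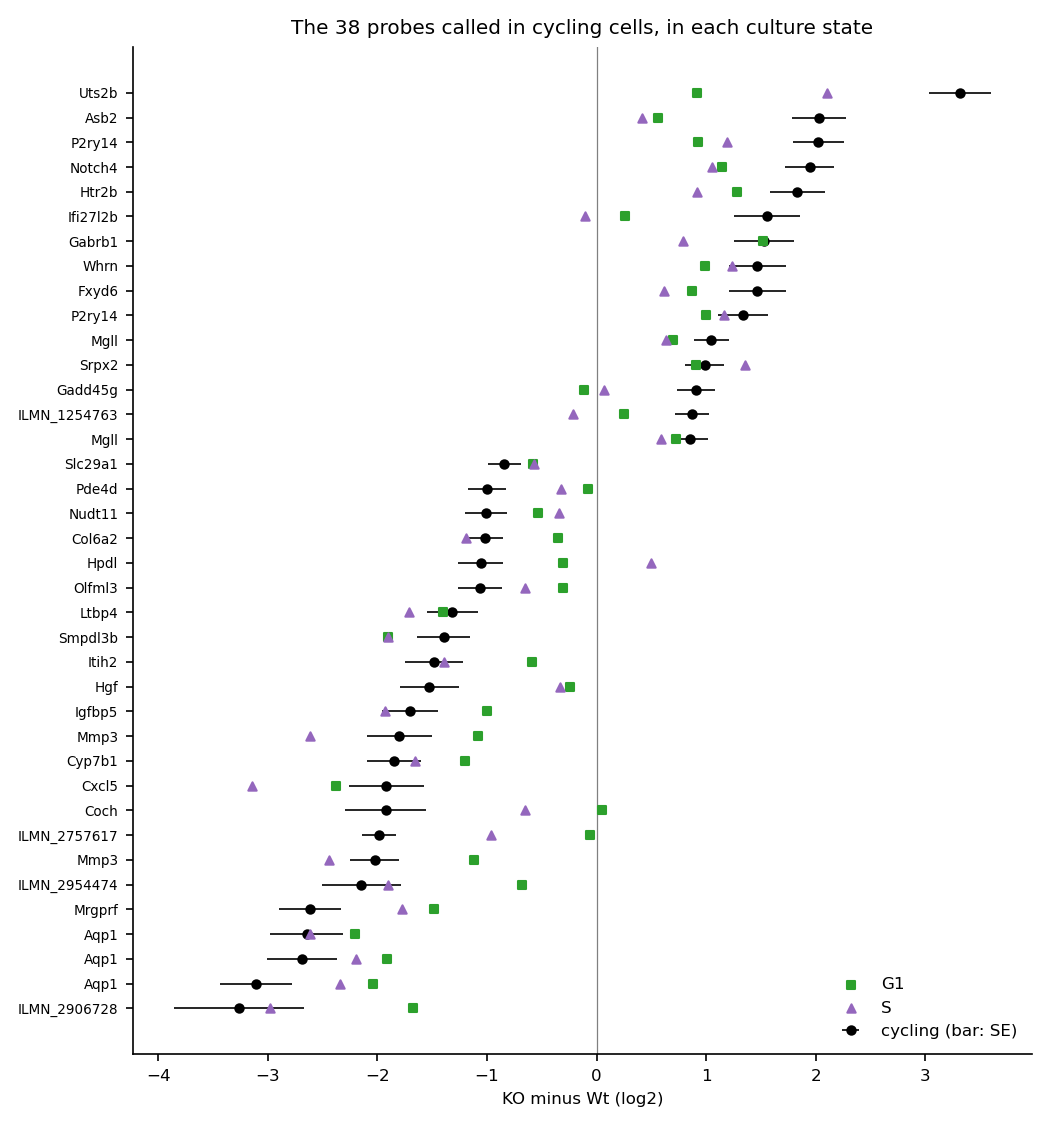
KO minus Wt (x axis, log2) of the 38 probes called in cycling cells (y axis), in cycling (black, bar SE), G1 (green squares) and S cells (purple triangles). Most G1 and S points lie on the same side of 0 as the cycling ones, 36 and 35 of 38, and Coch, Gadd45g, Hpdl, Ifi27l2b and ILMN_1254763 have points that do not.

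With the pair block alone, 44 further probes were called. In 14 of them the KO and Wt arrays overlapped. In all 44 the 3 pairs moved the same way, which a call with the block favours, so it is no further support. Among the 11 that were higher, Nptx2, a neuronal pentraxin, read 6.73, 6.83 and 7.61 in Wt and 8.83, 8.86 and 9.25 in KO, a rise of 1.92 ± 0.18 with the block (adjusted p = 0.00245, limma) that was not called without it (0.0886). The cornified envelope genes Lce1g and Lce1f were 2.95 and 2.06 higher, and the interleukin gene Il1a, detected on no Wt array, at least 1.82-fold higher. Among the 33 that were lower, Abi3bp, which encodes a matrix protein, was detected on no KO array and was at least 3.37-fold lower. The heparan sulfate proteoglycan gene Gpc3 differed by -1.45 and -1.50 at 2 probes, the imprinted gene Mest by -1.45 and the pentraxin gene Ptx3 by -1.28. The keratan sulfate proteoglycan gene Lum, detected on no KO array, was at least 2.41-fold lower.

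Some lists without calls lay to 1 side of 0. Median scaling in place of quantile normalization moved the median of all probes by 0.12 and turned the sign of 17 of 38 list medians, all of them of 0.19 or less in size, collagens, the Notch pathway and DNA replication included. After that shift was taken off, 8 still differed in sign from the values given here. The medians of sterol synthesis (-0.20), histones (0.90), Hox genes (0.44) and neuropeptide signalling (0.44) kept theirs under median scaling. Of 22 tested genes of sterol synthesis, 20 lay below 0, where 49.6% of all genes did, with a median of -0.32 and mean differences of -0.43, -0.32 and -0.38 in the 3 pairs. None was called. Cyp51, a demethylase of the pathway, read 11.01, 10.77 and 11.29 in Wt and 10.13, 10.20 and 9.87 in KO (-0.96 ± 0.22; adjusted p = 0.11, limma). The regulator Insig1 (-0.76 ± 0.23), the epoxidase gene Sqle (-0.80 ± 0.24) and the transcription factor gene Srebf2 (-0.50 ± 0.16) had groups that did not overlap either. Groups did not overlap in 22.3% of all tested probes, and these genes were named for the smallest p of the list. The medians of the list were 0.41 in G1 and 0.26 in S cells.

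Histone genes had a median of 0.74 over 45 tested genes, 37 of them above 0, and none was called. The mean difference was 0.29 and 0.27 in pairs 1 and 2 and 1.37 in pair 3. Without Wt replicate 3 the list median was 0.32. For H3c1, an H3 core histone gene, the values were 7.47, 7.47 and 7.03 in Wt and 8.05, 8.07 and 8.02 in KO (0.72 ± 0.25; adjusted p = 0.326, limma). All KO arrays lay above all Wt arrays, as in 11.0% of all tested probes. Hox genes had a median of 0.32 over 21 tested genes, with pair means of 0.25, 0.00 and 0.51 and a median of 0.18 without Wt replicate 3 and 0.14 without replicate 1 of both genotypes. Among them were Hoxb2 at 0.95 ± 0.25 and Hoxd13 at -1.22 ± 0.35, neither called.

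Lists of energy supply and protein synthesis differed with 1 array. The oxidative phosphorylation list had a median of 0.50 over 70 tested genes, with pair means of -0.11, -0.04 and 1.51, and the cytosolic ribosomal proteins had 0.28 over 56, with -0.11, -0.07 and 0.98. On Wt replicate 3 the oxidative phosphorylation mean was 1.18 log2 units below the average of all arrays, where the other 5 cycling arrays lay 0.21 to 0.34 above it. Ndufa13, a complex I subunit gene, read 13.45, 13.52 and 11.14 in Wt and 13.50, 13.68 and 13.70 in KO. Without Wt replicate 3 the list medians were -0.05 and -0.13.

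**Figure D4:**
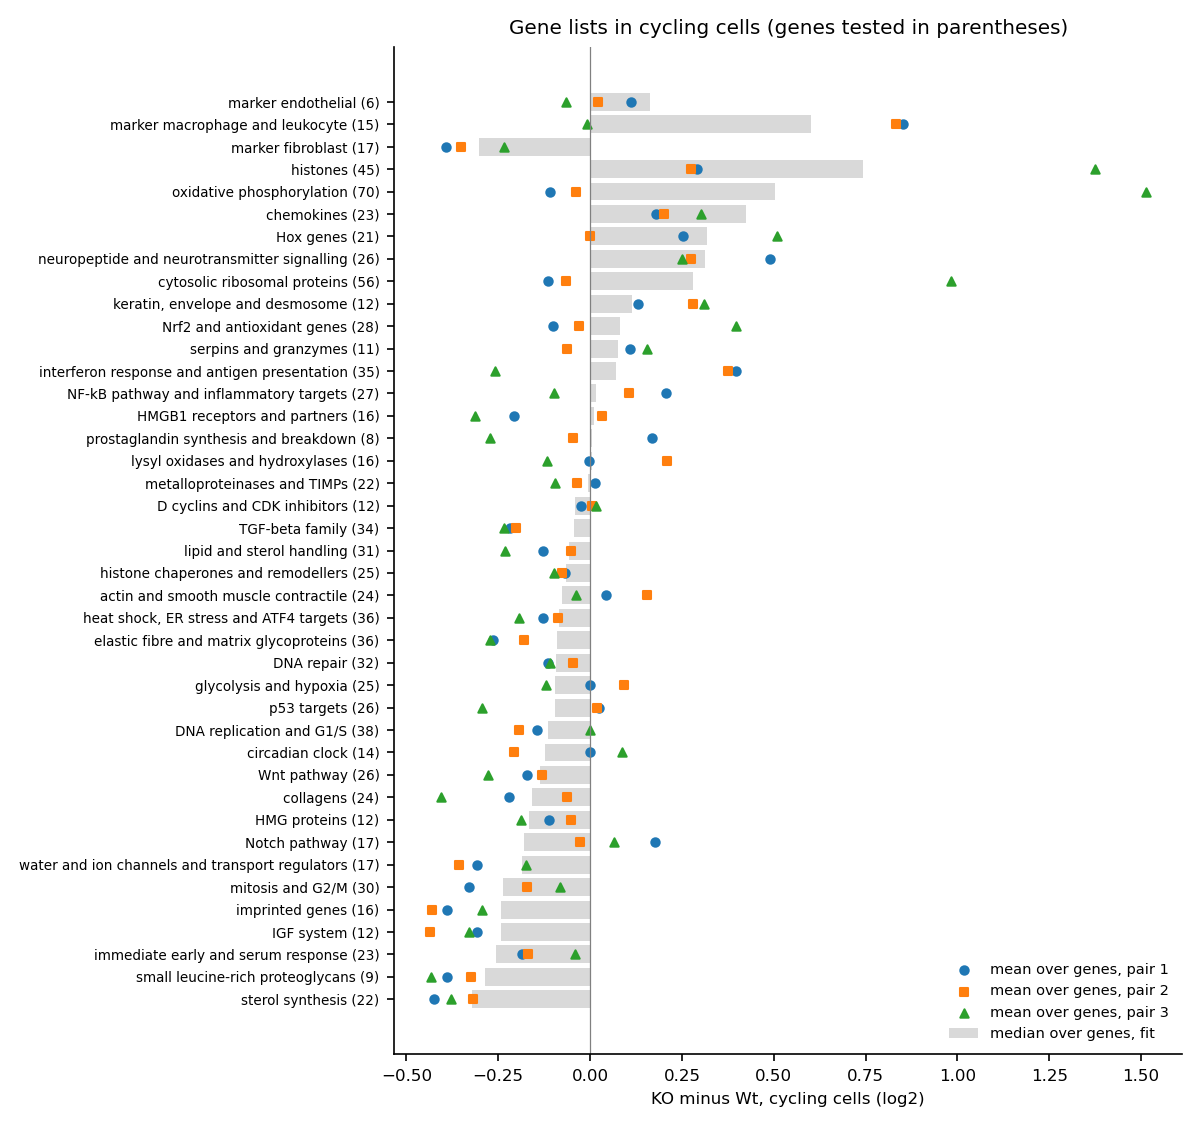
Median KO minus Wt over the tested genes of each list (grey bars, log2) and the mean over genes in each of the 3 pairs (symbols). Sterol synthesis lies below 0 in all pairs, histones above 0 in all pairs, and oxidative phosphorylation and cytosolic ribosomal proteins above 0 in pair 3 alone.

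Of the 38 lists other than cell type markers, 26 held no called gene, and their medians ran from -0.32 to 0.74. Among them were 12 tested genes of HMG proteins, the family of Hmgb1, with differences of -0.52 to 0.51 over 15 probes (smallest adjusted p = 0.407, limma). Hmgb2, the close relative of Hmgb1, read 8.51, 8.89 and 8.48 in Wt and 8.35, 8.30 and 8.62 in KO, with overlapping groups. The 16 tested genes of HMGB1 receptors and partners had a median of 0.01, with the thrombomodulin gene Thbd at -1.17 ± 0.27 (adjusted p = 0.111, limma). The 27 genes of the NF-kB pathway and inflammation had a median of 0.02, with the macrophage growth factor gene Csf1 at 0.89 ± 0.20 and the cytokine gene Il6 at -0.62 ± 0.29. The cell cycle lists had medians of -0.12 for 38 genes of DNA replication and -0.24 for 30 of mitosis, and 26 p53 targets had -0.10.

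The fibroblast label was checked with its markers. All 17 fibroblast markers on the array were tested, and each was detected on at least 1 of the 6 arrays, although Lum was detected on no KO array and Postn on 1 of 3 Wt arrays. The label held for the most abundant markers, with Col1a1 at 13.90 to 14.44 and Vim at 13.48 to 14.48 on the 6 arrays, and the median difference of the list was -0.30, which was -0.0092 with median scaling and -0.45 without Wt replicate 3. Pdgfra read 9.27, 9.34 and 8.42 in Wt and 7.83, 7.49 and 7.65 in KO (-1.35 ± 0.50; adjusted p = 0.366, limma), and did not pass with the pair block (0.0502). Markers of macrophages were present too. Of 19 macrophage and leukocyte markers on the array 15 were tested, and the lysosomal membrane gene Laptm5 reached 12.10 to 13.36, whereas the integrin genes Itgam and Itgax were detected on no cycling array. In arrays of bulk RNA, more cells of a type and more RNA per cell cannot be told apart.

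All 15 tested macrophage genes lay above 0 in KO, with a median of 0.60, no call, and pair means of 0.85, 0.83 and -0.01. In pair 3 members went both ways, with Tyrobp and Aif1 higher and Lyz2 and Cd14 lower in KO. The median was 0.38 without Wt replicate 3, 0.23 without KO replicate 2 and 1.02 without KO replicate 3. Their summed linear intensity ran from 33018 to 34234 in Wt and from 25641 to 58320 in KO. Among genes called with the pair block that macrophages also express, Mmp12 (pair differences 2.63, 2.03 and 0.82), Myo1f (1.32, 1.11 and 1.01) and Il1a (2.27, 1.46 and 1.0) had smaller differences in pair 3. The neuronal pentraxin gene Nptx2 also had its smallest difference in pair 3 (2.09, 2.03 and 1.64). Whether smaller differences in pair 3 were particular to genes that macrophages express was not tested. The share of all probes that were lowest in pair 3 is not given here. Of the called probes that rose, those of Htr2b (2.09, 2.34 and 1.07), Asb2 (2.56, 1.95 and 1.59), Ifi27l2b (1.92, 1.43 and 1.32), Gabrb1 (1.37, 1.96 and 1.24), Srpx2 (1.11, 0.94 and 0.91) and the dimmer one of P2ry14 (1.34, 1.59 and 1.09) were lowest in pair 3, and the other 9 were not. The part of the macrophage signal in these differences was not tested.

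As background, littermates of different genotype can also differ in DNA linked to the targeted gene. Hmgb1 lies on mouse chromosome 5, where 3 of 769 tested probes were called (0.390%, against 0.299% of all tested probes with a position), those of Hgf, Gabrb1 and Cxcl5. Within 10 Mb of Hmgb1, none of 106 probes of 80 genes was called (smallest adjusted p = 0.0886, limma), and with the pair block 3 were (2.83%, against 0.597%). These were Nptx2 and both probes of Medag, an adipogenesis gene, which read 11.01, 10.60 and 9.38 in Wt and 9.42, 9.28 and 8.45 in KO at the probe with the larger change. The median difference of the 106 probes was -0.02.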

How the data were processed

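The authors processed the 16 arrays with BeadStudio 3.0 per the submitters' processing notes. The deposited non-normalized table gives, per the file headers, the average intensity of every probe on every array with its detection p-value, and those columns were used. The authors' value table, linear intensities scaled alike on all arrays by a method not given in the sources used here, was an alternative. All 6 cycling arrays lay on slide 1, with 2 G1 arrays.

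Intensities were background-corrected with normexp from the detection p-values, offset by 16, quantile normalized and log2 transformed (neqc, limma 3.58.1, R 4.3.3, statmod 1.5.0). The test took the 12078 of 25697 probes that were detected (p under 0.01) throughout 1 or more of the 6 groups. A mean for each group was fitted to all 16 arrays with limma, and KO minus Wt of cycling cells was tested two-sided with Benjamini-Hochberg adjustment over all probes tested. The probe table gave 1 symbol for 23978 probes and none for 1719. Folds written "at least" set the brighter group's mean against the lowest detected value of each dim array, or the probe's own value where higher. These folds are bounds for the background-corrected values used here alone. Some of these probes had smaller differences under the alternative fits. List medians take the brightest probe per gene.

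Each pair comes from 1 mother per the series description. Same-numbered arrays were taken as pairs. Their deviations from the group mean correlated at 0.196, 0.189 and 0.388, but Wt 1 with KO 2 gave 0.246 and Wt 2 with KO 1 gave 0.226. For arrays 1 and 2 the values therefore do not show which belong together. The calls with the pair block rest on the numbering. P-values of the fit without the block measure the spread between arrays within groups, pooled over cycling, G1 and S cells. The fit was tested on simulated data.

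Genes named are those called, up to 4 members per list with the smallest p, HMG genes, the 10 higher and 10 lower probes with the smallest p among those called with the pair block alone, calls for differences between states, and defining markers. Members, lists and motifs were chosen with earlier results of these data known.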

Additional observations from a re-analysis of the deposited data

Results flagged for a closer look

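The genotype difference of the unnamed probe ILMN_2757617 differed between cycling and G1 cells by -1.92 log2 units (adjusted p = 0.00657, limma). Some lists moved 1 way in every pair of cycling cells and the other way in every pair of another state, and these differences between states were not tested. For sterol synthesis the list mean differed by -0.74 between cycling and G1 cells and by -0.56 between cycling and S cells. Chemokines differed by 0.71 against G1 and by 1.13 against S. Collagens differed by -0.44 against G1, histones by 0.82 against S and Hox genes by 0.33 against S. The histone means in cycling cells were 0.29, 0.27 and 1.37 in the 3 pairs, so pair 3 carried most of that value, and the Hox mean in pair 2 was 0.00. The pericyte and smooth muscle markers differed by -0.34 against G1, and the 3 tested chondrocyte and osteoblast markers by -1.08 against G1 and -0.66 against S.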

How the results depend on the processing

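The 38 calls of KO against Wt became 73 with the replicate block within phase (pairs), 21 with the replicate block in the 6 cycling arrays alone, 8 in those 6 arrays alone, 12 with median scaling, which shifted the median of all probes by 0.12, and 2628 with array weights (1390 higher and 1238 lower). Slide 1 alone holds those 6 arrays and a single G1 array of each genotype. The G1 arrays add no estimate of spread there, so the calls were those of the 6 arrays alone. They became 272 without Wt_cycling replicate 3 and KO_G1 replicate 1, 12 to 24 without single cycling arrays, 7 with arrays 1 and 2 of each genotype averaged, and 5, 8 and 28 without replicate 1, 2 or 3 in both genotypes. The averaging, the last 3 fits and the one without both Wt_cycling replicate 3 and KO_G1 replicate 1 were chosen after seeing the data. Relative to the mean over arrays (log2), oxidative phosphorylation was lowest in Wt_cycling replicate 3 (-1.18) and KO_G1 replicate 1 (-1.47). The other arrays lay at -0.29 to 0.36. The slide as a random block, the authors' table, no background correction, no filter on dim probes and detection in a cycling group gave 38 or 39 calls, of which 38, 28, 28, 34 and 38 were among the 38. The 4 probes of ILMN_2757617, Uts2b, Mrgprf and 1 of Aqp1 were called under all 22 alternatives. The 22 are not independent, as slide 1 alone repeats the 6 arrays alone. The authors' table also gave the same counts as no background correction. For cycling minus G1, the 1 call became 0 with the replicate block or median scaling, 5 without both arrays that stand apart, and 1 to 2 without single arrays, and for cycling minus S the 0 became 1, with the block, 69 and 0 to 1. The 25 called probes of the lists became 13 with the block in 6 arrays, 6 in 6 arrays alone, 10 with median scaling, 359 with weights, 67 without both arrays and 6 with averaging, with 4 to 19 without 1 replicate number or array. The count of 3 called probes on the chromosome of Hmgb1 became 1 with the block in 6 arrays (a probe other than those 3), median scaling, the authors' table or no background correction, 0 in 6 arrays alone or with averaging, 0 to 2 without single arrays or numbers, 169 with weights and 14 without both arrays. The 7 called genes with an AP-1 site became 3, 2, 4, 89, 20 and 4 in the order block in 6 arrays, 6 arrays alone, median scaling, weights, without both arrays and averaging, and 2 to 6 without numbers or arrays. These counts of list probes, chromosome 5 probes and AP-1 genes depend on the total of calls (2628 with weights, 272 without both arrays). Chromosome 5 held 769 of the 11385 tested probes with a position. The counts were not set against all features, so a larger count is not a larger share. With median scaling 17 of 38 list medians changed sign, and 8 after the shift of all probes was taken off. Aspn, not called at -0.43, was at 0.065 with array weights. The cause of these changes was not tested. Of the 44 probes that gained a call with the block, only some are named. Signal near background limits the genes detected on some arrays, and 3 arrays a group limit all values.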
